A study of Homo sapiens with 60 samples.

Results

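The 10 genes described here belong to the unfolded protein response of the endoplasmic reticulum (ER) and were followed across 20 treatment and dose groups of SW1783, an established human astrocytoma cell line. They were HSPA5, HSP90B1, DNAJB9, DNAJC3, SDF2L1, PDIA4, CRELD2, HERPUD1, MANF and XBP1. The symbols were matched to Ensembl identifiers in the deposited count table, and all 10 were found among its 60675 genes. All 10 also passed the filter on low counts, which 17569 genes passed.

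The ER folds secreted and membrane proteins with the help of chaperones. When unfolded proteins build up, sensors in its membrane switch on the unfolded protein response: ERN1 encodes the sensor IRE1, which splices the messenger RNA of XBP1, EIF2AK3 encodes PERK, which slows translation and raises the transcription factor ATF4, and ATF6 encodes a sensor that becomes a transcription factor itself. Spliced XBP1 and cleaved ATF6 raise genes of folding and of the disposal of misfolded proteins.

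Cells grew in L-15 medium with 10% serum and were treated for 24 h. The groups were a vehicle of 0.1% DMSO (dimethyl sulfoxide; the series text gives 2%), wortmannin, an inhibitor of phosphoinositide 3-kinase, at 10 µM, and water extracts of 6 herbs at a high, a medium and a low dose, each with 3 libraries. No DMSO content is given here for wortmannin or the extracts, so solvent and treatment cannot be told apart in comparisons with the vehicle. Fresh ginger (Zingiberis Rhizoma Recens), dried ginger (Zingiberis Rhizoma), Pinellia (Pinelliae Tuber) and jujube (Zizyphi Fructus) were used at 500, 100 and 20 µg/mL. Scutellaria (Scutellariae Radix) was used at 410, 82 and 16.4 µg/mL, and Coptis (Coptidis Rhizoma) at 20, 4 and 0.8 µg/mL, where the high dose was set to inhibit 20% of growth. All cells were of this line, and no source used here says that the libraries of a group came from separate cultures, so p-values measure the spread between libraries, which may be technical. The vehicle shares its set number in the description codes with no extract, and set and treatment cannot be told apart in comparisons with it. The doses of an extract share that number, as do the gingers.

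Library totals were 20.2 to 32.8 M counts (M, 10 to the power 6). Of the 10 astroglial markers checked, VIM (3790 to 6870 CPM, the counts scaled per 10 to the power 6 counts of a library) and CD44 (1990 to 3030 CPM) were high, while GFAP, S100B, SOX2, AQP4 and ALDH1L1 stayed at or below 0.346 CPM in every library. AQP4, SOX2 and ALDH1L1 were at 0 in 54, 45 and 38 of the 60 libraries. The sum of the 10 ran from 6980 to 7330 CPM in the vehicle and from 8770 to 9120 CPM at the high dose of Coptis, with 6400 to 6640 CPM at its medium dose and 7930 to 8170 CPM at the high dose of Pinellia. Under the high dose of Coptis the sum of 3 plasma cell markers was 54.4 to 59.9 CPM (81.8 to 85.2 in the vehicle), nearly all of it SDC1, while MZB1 was at 0 in 54 of the 60 libraries. SLC1A3, NES and OLIG2 reached at most 50.1, 11.9 and 1.28 CPM, so VIM and CD44 made up nearly all of the astroglial sum. Marker values and sums use library totals, so they are not on the scale of the CPM of the members. The part of these sums in the results was not tested. Trimmed-mean scaling factors were 0.799 to 0.827 in the high and 0.917 to 0.927 in the medium dose of Coptis, against 0.997 to 1.036 in the other groups, and mitochondrial genes took 10.54% to 11.53% of counts at the medium dose of Coptis. Fewer cells of a kind and less RNA per cell cannot be told apart in these bulk samples.

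In the vehicle HSPA5, HSP90B1 and PDIA4 stood far above the other members. Per kilobase of exon, HSPA5 had 921 CPM, HSP90B1 330 and PDIA4 207, the levels of MANF, SDF2L1, DNAJC3 and XBP1 were 66.9, 44.8, 35.5 and 32.4, and HERPUD1, DNAJB9 and CRELD2 had 15.3, 12.2 and 9.56. HSPA5, which encodes the Hsp70 chaperone BiP (chr9:125234853-125241330, minus strand, GRCh38), alone took 0.365% of all vehicle counts. Counts on the XBP1 gene (chr22:28794555-28800597, minus strand) hold the spliced and the unspliced transcript together. HSP90B1, DNAJB9 and CRELD2 share 99 to 183 exon bases each with genes on the opposite strand (TTC41P and C12orf73, PNPLA8 and THAP5, and ALG12), HSP90B1 also shares 131 with MIR3652, and reads from those bases cannot be told apart because the strand setting of the counting is not given here. The pseudogene copies XBP1P1, HSP90B3P and HSP90B2P held 366, 23 and 150 counts over the 60 libraries, beside 202708 for XBP1 and 2566041 for HSP90B1.

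The start regions of 6 members hold the ER stress response elements through which ATF6 and XBP1 are known to act. ERSE was searched as CCAAT and CCACG with 9 free bases between them and ERSE-II as ATTGG and CCACG with 1 free base between them, on both strands, in RefSeq windows from 250 bases before to 50 after the start (GRCh38.p14). ERSE was found in 4 of 10 members and in 0.0769% of 35116 windows, and ERSE-II in 2 members and 0.0541% of windows. The stretches shown are those that carry such an element and end before the RefSeq start. That start can lie inside the gene span of the annotation used for the members. The stretches of HSP90B1 and CRELD2 lie wholly inside that span. All stretches are given on the strand of the gene, with the fixed letters of the element in capitals.
HSPA5, chr9:125241344-125241469, minus strand: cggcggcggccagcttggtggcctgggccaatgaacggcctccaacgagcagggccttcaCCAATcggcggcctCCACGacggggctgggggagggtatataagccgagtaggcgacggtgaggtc
HSP90B1, chr12:103930160-103930399, plus strand: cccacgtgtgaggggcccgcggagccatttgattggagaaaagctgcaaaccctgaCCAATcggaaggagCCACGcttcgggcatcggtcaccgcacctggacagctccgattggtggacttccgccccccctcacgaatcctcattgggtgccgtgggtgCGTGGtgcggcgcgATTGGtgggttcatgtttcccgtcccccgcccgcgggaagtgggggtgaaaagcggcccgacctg
XBP1, chr22:28800570-28800681, minus strand: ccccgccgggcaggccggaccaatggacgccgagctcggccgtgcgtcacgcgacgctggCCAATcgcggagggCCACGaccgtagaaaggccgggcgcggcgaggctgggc
CRELD2, chr22:49918494-49918632, plus strand: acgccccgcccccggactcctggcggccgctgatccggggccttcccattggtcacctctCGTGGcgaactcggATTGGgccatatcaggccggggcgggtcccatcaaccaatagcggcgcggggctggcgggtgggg
HERPUD1, chr16:56931965-56932095, plus strand: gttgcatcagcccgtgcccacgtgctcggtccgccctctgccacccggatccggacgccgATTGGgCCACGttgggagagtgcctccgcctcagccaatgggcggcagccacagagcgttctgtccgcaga
SDF2L1, chr22:21642054-21642184, plus strand: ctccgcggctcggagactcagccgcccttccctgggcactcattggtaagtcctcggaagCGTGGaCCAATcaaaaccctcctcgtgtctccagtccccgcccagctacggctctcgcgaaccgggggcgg

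HSP90B1 carries an ERSE on each strand, and the 6 members with an element include strong and weak responders to the treatments described below. HERPUD1 is the member that also holds an element of the kind bound by ATF4 with C/EBP factors, TGATGNAAN, which 3.61% of windows hold. The XBP1-binding core TGACGTGG was found in 0 of 10 members and in 0.729% of windows. CCAAT alone, a part of ERSE, occurred in all 10 members and in 34.6% of windows. These matches are letters in a window of 300 bases, and no binding was measured.

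**Figure D1:**
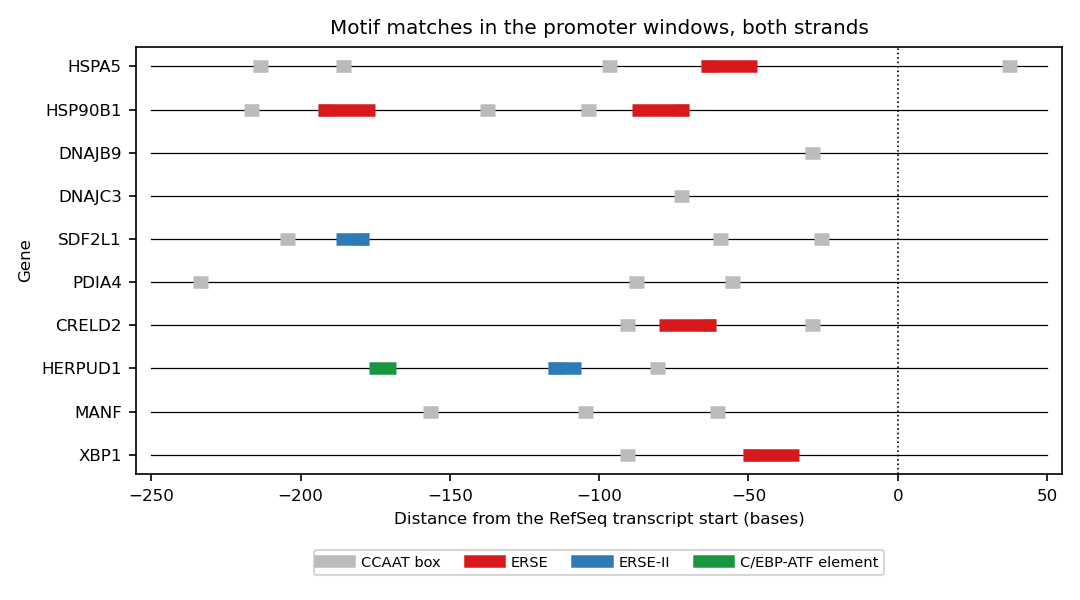
Positions of the searched motifs in RefSeq windows of the members, in bases from the RefSeq start (horizontal axis). The 6 members with an ERSE or ERSE-II match have it between positions -194 and -34.

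Coptis at 20 µg/mL, the lowest of the high doses by weight, raised all 10 members, as the plot of fold changes shows. HERPUD1, an ER membrane protein that recruits the degradation machinery, was 5.83-fold, DNAJB9, a co-chaperone of BiP that holds IRE1 in check, 5.33-fold, HSPA5 5.02-fold and XBP1 3.91-fold as high as in the vehicle. Among all tested genes, 75.2% were called at an adjusted p under 0.05 (edgeR's quasi-likelihood test, Benjamini-Hochberg over all tested genes), 37.2% as higher. The median log2 fold change was 1.12 for the members and -0.03 for all genes.

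HSPA5 stood at 3611, 3580 and 3611 CPM in the vehicle and at 17850, 18490 and 17860 CPM at the high dose of Coptis. All treated libraries lay far above the vehicle, and the log2 fold change was 2.33 ± 0.03 (SE; adjusted p = 4e-53). Counts on HSPA5 made up 1.47% of all counts there. HSP90B1, the ER form of Hsp90, went from 1559, 1558 and 1525 CPM to 3379, 3463 and 3305 CPM (log2 fold change 1.13 ± 0.02, adjusted p = 1.2e-41).

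Among the co-chaperones, DNAJB9 went from 35.46, 34.64 and 33.93 CPM to 187.7, 185.7 and 181.1 CPM (2.41 ± 0.05, adjusted p = 1.4e-41). SDF2L1, which assists BiP in a complex with J-domain proteins, rose by 1.10 ± 0.08 on the log2 scale. DNAJC3, a co-chaperone also known as an inhibitor of PERK, rose by 0.73 ± 0.04. Of the oxidative folding enzymes, PDIA4, a protein disulfide isomerase, rose by 0.76 ± 0.03 and CRELD2, an ER protein with disulfide isomerase activity, by 0.56 ± 0.05. CRELD2 had the smallest rise of the members, from a mean of 49.36 ± 2.59 (SD, n = 3) to 72.86 ± 1.71 CPM.

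HERPUD1 moved from 79.64, 78.91 and 78.4 CPM to 464.8, 457.9 and 459.6 CPM (2.54 ± 0.04, adjusted p = 2.4e-48). MANF, an ER protein that is also secreted and protects stressed cells, rose by 1.05 ± 0.05. XBP1 went from 96.46, 99.89 and 98.26 CPM to 389.4, 391.1 and 373.2 CPM (1.97 ± 0.05, adjusted p = 6.9e-39).

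**Figure D2:**
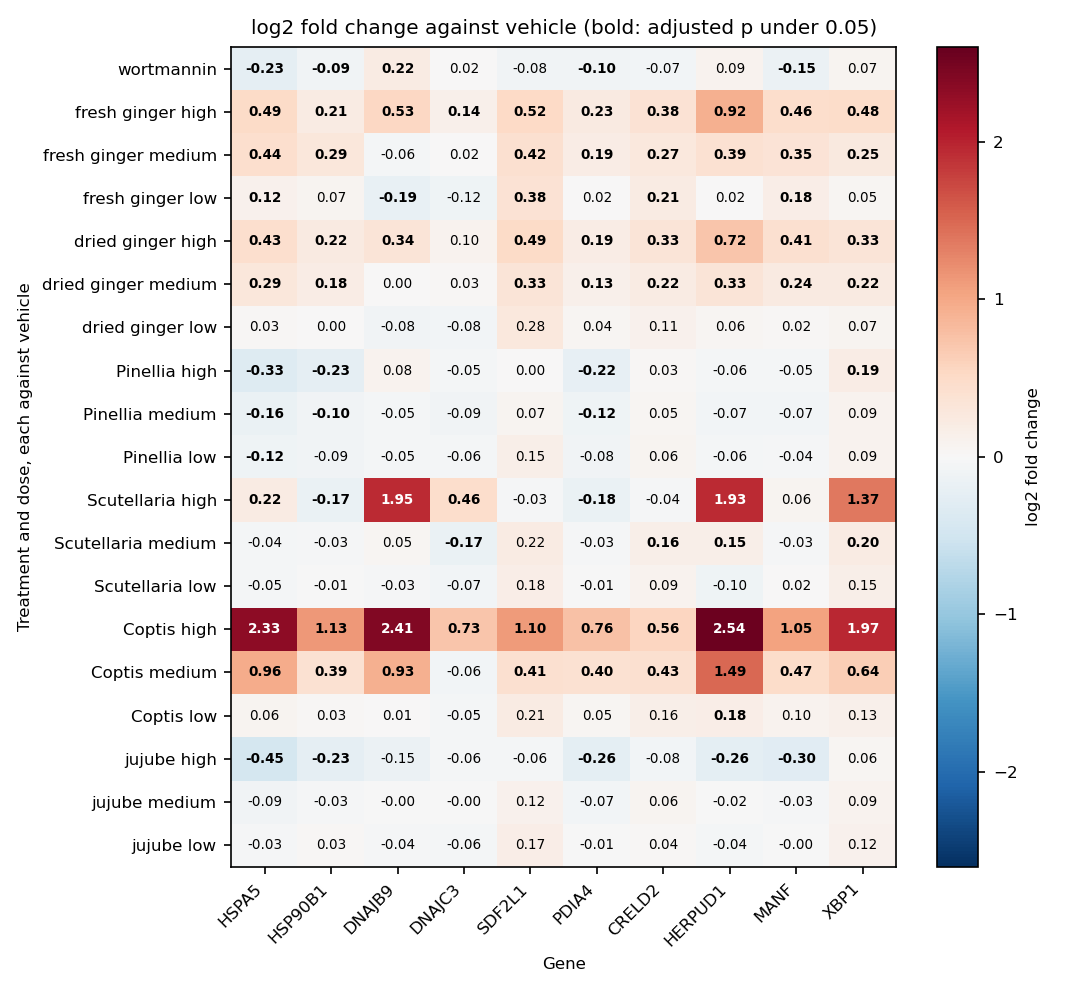
Log2 fold changes of the 10 members (columns) in wortmannin and in each dose of each extract against the vehicle (rows), with called values in bold. Both doses of Coptis from 4 µg/mL and the high doses of the gingers show rises in most members, Scutellaria shows rises in some and falls in others, and jujube and Pinellia show falls.

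At 4 µg/mL of Coptis 9 of the 10 rose, where 41.2% of all genes were called and 21.0% were higher. HERPUD1 led with 1.49 ± 0.04, followed by HSPA5 at 0.96 ± 0.03, DNAJB9 at 0.93 ± 0.05 and XBP1 at 0.64 ± 0.05. HSPA5 was at 6977, 7105 and 6920 CPM, between the vehicle and the high dose. DNAJC3 did not pass the test (-0.06, interval -0.14 to 0.02), and with libraries scaled by their totals it fell (-0.20, adjusted p = 1e-05; adjusted p 1e-05 to 0.64 over 12 alternatives). At 0.8 µg/mL HERPUD1 was the 1 member called, with 88.67, 88.04 and 91.28 CPM (0.18 ± 0.04, adjusted p = 0.019), where 0.683% of all genes were called. That call ended without any 1 of the 3 vehicle or 3 low-dose libraries (adjusted p = 0.062 to 0.13). By edgeR 5 members had an unadjusted p under 0.05 there, and DESeq2 called 1. All 3 values lay above the vehicle's for 7 of the 10 members, HERPUD1 among them, and for 9.12% of all genes. They lay below it for 1 member and for 8.43% of all genes.

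Between 0.8 and 20 µg/mL, which share a set number, all 10 members were higher at the high dose, where 75.8% of all genes were called and 36.9% were higher. Log2 differences ran from 0.40 ± 0.05 for CRELD2 to 2.41 ± 0.05 for DNAJB9. From 4 to 20 µg/mL all 10 were higher as well (71.4% of all genes called, 35.0% higher), HSPA5 by 1.37 ± 0.03 and CRELD2 by 0.13 ± 0.05. CRELD2 turned to -0.04 (adjusted p = 0.41) with libraries scaled by their totals, and its adjusted p was 0.0018 to 0.41 over 12 alternatives. That scaling moved the median of all genes from -0.03 to -0.35 at the high and from 0.01 to -0.13 at the medium dose against the vehicle. Under it all 10 members at 20 µg/mL and the same 9 at 4 µg/mL remained higher than the vehicle, HSPA5 by 2.01 and 0.82 and CRELD2 by 0.24 and 0.29. The part of the mitochondrial share at 4 µg/mL in these values was not tested.

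The rest of the pathway was described with lists of related genes, by counts to be read beside the 37.2% of all genes called higher and 37.9% called lower at 20 µg/mL. In the ATF4 and CHOP list, the stress arm below PERK and its sister kinases, all 17 tested genes rose at 20 µg/mL, with a median of 2.63. ATF4 itself rose by 2.41 ± 0.03 and DDIT3, which encodes CHOP, by 4.74 ± 0.06, from 24.79 to 663.3 CPM. TRIB3, a pseudokinase induced by CHOP, rose by 4.92 ± 0.04 and PPP1R15A, which reverses the block of translation, by 3.89 ± 0.05. Of the sensors, ERN1 rose by 2.15 ± 0.05, ATF6 by 0.31 ± 0.03 and EIF2AK3 by 0.23 ± 0.04, but with library totals alone ATF6 was at -0.0044 (adjusted p = 0.91) and EIF2AK3 at -0.09 (adjusted p = 0.063), with ERN1 at 1.84. In the list of sensors and their transcription factors 8 of 13 rose and 4 fell (median 0.20). With library totals alone 4 rose and 6 fell (median -0.12), without the share of all genes under that scaling to compare.

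Other ER chaperones and folding enzymes rose in 20 of 29 cases and fell in 4 at 20 µg/mL, with a median of 0.55. HYOU1, the nucleotide exchange factor of BiP, rose by 1.08 ± 0.02, the lectin chaperone CALR by 0.96 ± 0.03, PDIA6 by 0.79 ± 0.03 and CANX by 0.65 ± 0.02. In ER-associated degradation 18 of 26 rose and 6 fell (median 0.48), with SEL1L at 1.35 ± 0.02 and SYVN1, its ubiquitin ligase partner, at 1.36 ± 0.05. Of 27 translocation and N-glycosylation genes 24 rose (1 fell), and those of ER to Golgi transport in 15 of 20 (3 fell), SEC24D by 1.21 ± 0.03. In the cytosol 12 of 20 heat shock genes fell and 5 rose (median -0.18), with HSPA8 at -1.61 ± 0.03, DNAJA1 at -1.76 ± 0.05 and HSPA1A at -2.90 ± 0.08. With library totals alone, an alternative added after seeing the data, 16 of 17 rose in the ATF4 list. Risen and fallen genes were then 18 and 9 for chaperones, 15 and 8 for degradation and 17 and 7 for translocation. For transport they were 10 and 8, and for heat shock genes 4 and 15. The shares of all genes called under that scaling are not given here, so these counts have no background to be read against.

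Scutellaria at 410 µg/mL raised DNAJB9, HERPUD1 and XBP1 the most, while HSPA5 rose little and HSP90B1 and PDIA4 fell. Of the 10 members 5 rose, 2 fell and 3 did not pass the test, where 58.8% of all genes were called, 30.3% higher and 28.5% lower. DNAJB9 was 3.85-fold, HERPUD1 3.82-fold and XBP1 2.59-fold as high as in the vehicle, while HSP90B1 and PDIA4 were lower. The median log2 fold change was 0.14 for the members and 0.01 for all genes.

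DNAJB9 stood at 138.4, 128.3 and 134.2 CPM (log2 fold change 1.95 ± 0.05, adjusted p = 1.1e-36), HERPUD1 at 305.6, 302.8 and 297.5 CPM (1.93 ± 0.04, adjusted p = 2e-42) and XBP1 at 258.5, 263.5 and 241.4 CPM (1.37 ± 0.05, adjusted p = 3.3e-31). These libraries lay between the medium and the high dose of Coptis for all 3 genes. DNAJC3 rose by 0.46 ± 0.04. HSPA5 rose little, to 4223, 4090 and 4238 CPM, all above the vehicle (0.22 ± 0.03, adjusted p = 3.9e-10).

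HSP90B1 fell to 1407, 1328 and 1396 CPM (-0.17 ± 0.02, adjusted p = 1.8e-08) and PDIA4 to 604.7, 609.8 and 584.7 CPM (-0.18 ± 0.03, adjusted p = 2.7e-08), both below every vehicle library. SDF2L1 (-0.03, interval -0.19 to 0.13), CRELD2 (-0.04, interval -0.13 to 0.06) and MANF (0.06, interval -0.04 to 0.17) overlapped the vehicle. Set beside Coptis at 20 µg/mL, where HSPA5 and HERPUD1 had log2 fold changes of 2.33 and 2.54, they had 0.22 and 1.93 here. The doses differ between these extracts, so the values were not tested against each other.

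**Figure D3:**
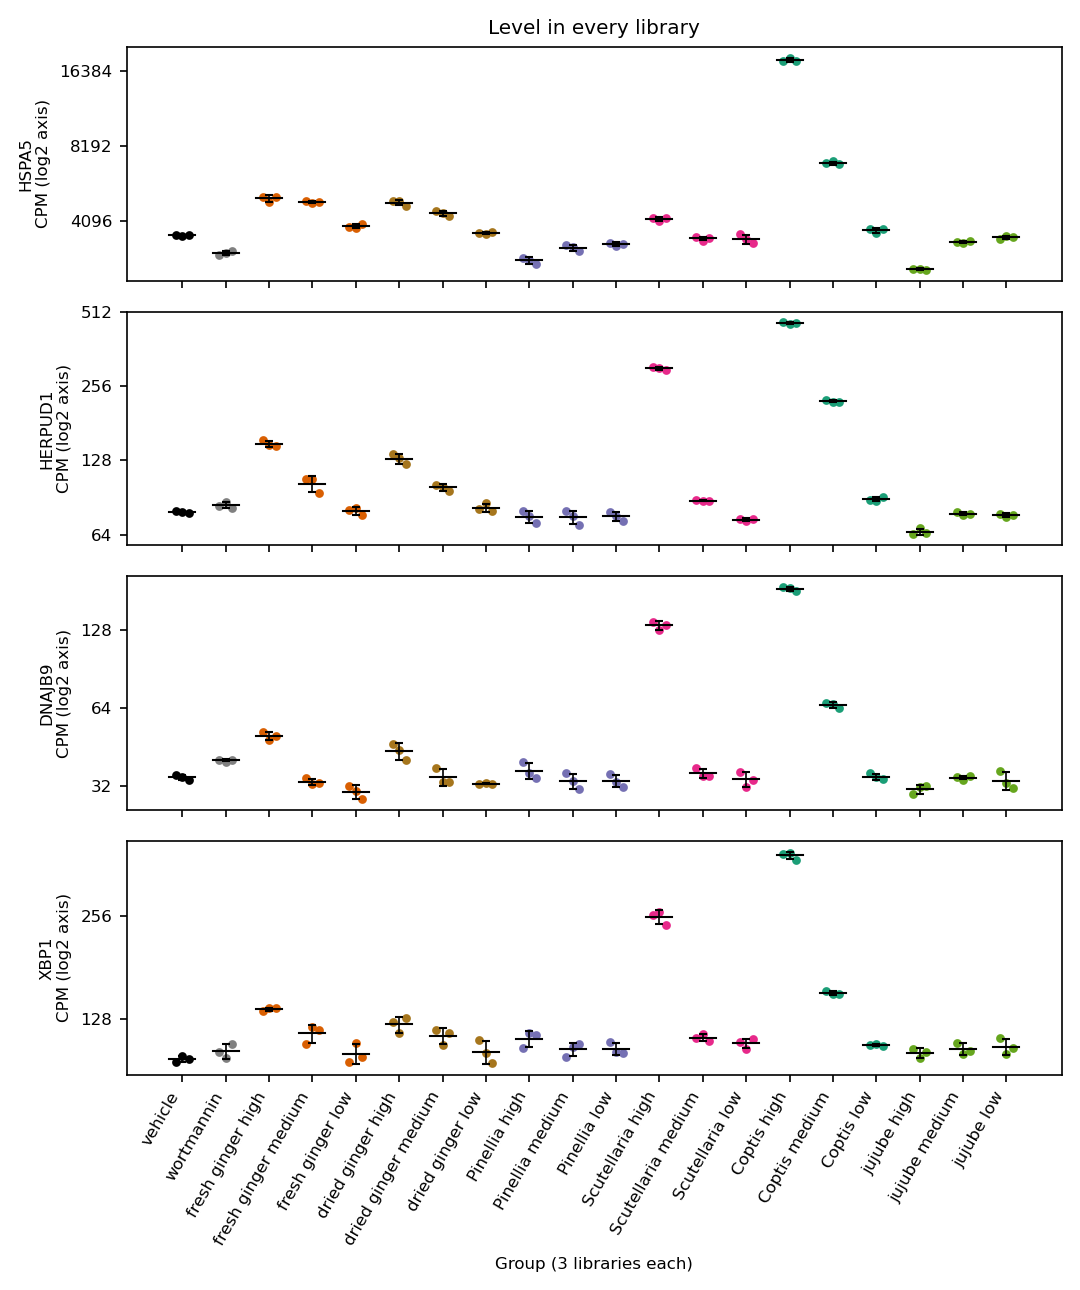
Levels in CPM of HSPA5, HERPUD1, DNAJB9 and XBP1 (log axis) in each of the 60 libraries, by treatment and dose, with a point for each library and a bar for the mean with its SD. HSPA5 in Scutellaria at the high dose sits at 4090 to 4238 CPM, above the vehicle by less than HERPUD1, DNAJB9 and XBP1 do on the log scale.

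Against 16.4 µg/mL of the same extract the same 5 members were higher at 410 µg/mL and 4 were lower, 2 more than against the vehicle (58.1% of all genes called, 29.2% higher and 28.9% lower). HSPA5 was higher by 0.27 ± 0.03 and HSP90B1 and PDIA4 were lower by -0.16 ± 0.02 and -0.16 ± 0.03. SDF2L1 (-0.21 ± 0.08, adjusted p = 0.017) and CRELD2 (-0.12 ± 0.05, adjusted p = 0.027) were also lower. The SDF2L1 call ended without low-dose replicate 1 or high-dose replicate 2 (adjusted p = 0.14 and 0.13), and the CRELD2 call without high-dose replicates 1 or 3 or low-dose replicates 1 or 2, with library totals alone and with no filter (adjusted p 0.023 to 0.15 over 12 alternatives). Against 82 µg/mL the same 9 members differed in the same directions (57.3% of all genes called, 28.7% higher and 28.6% lower). There the SDF2L1 call (-0.25 ± 0.08) ended without high-dose replicate 2 or medium-dose replicate 3 (adjusted p = 0.057 and 0.058).

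At 82 µg/mL 3 members rose and 1 fell (8.45% of all genes called, 3.72% higher and 4.72% lower): XBP1 (0.20 ± 0.05), CRELD2 (0.16 ± 0.05) and HERPUD1 (0.15 ± 0.04) were higher and DNAJC3 (-0.17 ± 0.04) was lower than the vehicle. The CRELD2 call ended without vehicle replicates 1 or 3 or medium-dose replicates 2 or 3 (adjusted p = 0.19, 0.086, 0.077 and 0.14). At 16.4 µg/mL edgeR called 0 members, with 3 at an unadjusted p under 0.05 and 0 by DESeq2 (2.72% of all genes called). XBP1 there was at 109.7, 105.1 and 112.2 CPM (0.15, adjusted p = 0.10). All 3 values lay above the vehicle's for 2 of the 10 members, XBP1 among them, and for 8.85% of all genes. They lay below it for 2 members and for 9.31% of all genes.

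In the ATF4 and CHOP list all 17 tested genes rose at 410 µg/mL too (median 2.54). ATF4 rose by 2.21 ± 0.03, DDIT3 by 2.54 ± 0.06, TRIB3 by 3.87 ± 0.04 and ASNS, asparagine synthetase, by 2.62 ± 0.03. ERN1 rose by 1.77 ± 0.05, EIF2AK3 by 1.17 ± 0.04 and ATF6 by 0.33 ± 0.03. At this dose 30.3% of all genes were called higher and 28.5% lower, and other ER chaperones rose in 10 of 29 cases, near that share, and fell in 5 (median 0.03), with FICD, which modifies BiP, at 1.67 ± 0.05 and HYOU1 at 0.25 ± 0.02. Of 26 degradation genes 17 rose and 4 fell (median 0.16), among them SYVN1 (0.97 ± 0.05) and DERL1 (0.60 ± 0.03). ER to Golgi transport genes rose in 14 of 20 cases (1 fell), SEC23B by 0.56 ± 0.03. Cytosolic heat shock genes split into 8 risen and 9 fallen, with HSPA1B at 1.35 ± 0.06.

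At 500 µg/mL both gingers raised most members, HERPUD1 the most. All 10 rose under fresh ginger (19.3% of all genes called, 9.12% higher), with a median of 0.47 for the members and 0.01 for all genes. Under dried ginger at that dose 9 rose (17.0% called, 7.76% higher), with a median of 0.33. HERPUD1 was 1.65-fold as high as the vehicle under dried ginger, and its log2 fold changes were 0.92 ± 0.04 under fresh and 0.72 ± 0.04 under dried ginger.

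HERPUD1 stood at 154.7, 147.2 and 146.3 CPM under fresh ginger and at 135.9, 130.5 and 123.6 CPM under dried ginger at 500 µg/mL, all above the vehicle. HSPA5 was at 5142, 4891 and 5126 CPM (0.49 ± 0.03, adjusted p = 2.5e-21) and at 4917, 4917 and 4725 CPM (0.43 ± 0.03, adjusted p = 8.4e-19). DNAJB9 reached 51.88, 48.35 and 50.17 CPM (0.53 ± 0.06) under fresh and 46.58, 44.12 and 40.34 CPM (0.34 ± 0.06) under dried ginger. XBP1 rose by 0.48 ± 0.05 and 0.33 ± 0.05.

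Rises of SDF2L1 (0.52 ± 0.08 and 0.49 ± 0.08), MANF (0.46 ± 0.05 and 0.41 ± 0.05) and CRELD2 (0.38 ± 0.05 and 0.33 ± 0.05) were close to those of HSPA5, and those of HSP90B1 (0.21 ± 0.02 and 0.22 ± 0.02) and PDIA4 (0.23 ± 0.03 and 0.19 ± 0.03) were smaller. DNAJC3 rose under fresh ginger by 0.14 ± 0.04, a call that ended without high-dose replicate 1 (adjusted p = 0.10; 0.0022 to 0.10 over 12 alternatives). It did not pass the test under dried ginger (0.10, interval 0.02 to 0.18, adjusted p = 0.07).

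At 100 µg/mL 8 members rose under each ginger, where 1.50% of all genes were called under fresh ginger, 0.842% higher, and 0.700% under dried ginger, 0.410% higher. HSPA5 rose by 0.44 ± 0.03 and 0.29 ± 0.03, and HSP90B1 by 0.29 ± 0.02 and 0.18 ± 0.02. The members outside the calls were DNAJB9 (-0.06 under fresh and 0.00 under dried ginger) and DNAJC3 (0.02 and 0.03). Under fresh ginger the XBP1 call (0.25 ± 0.05) ended without medium-dose replicate 2 (adjusted p = 0.063). Under dried ginger the count of 8 fell to 5 without vehicle replicate 1, to 4 without medium-dose replicate 1 and to 5 when no other libraries were fitted. SDF2L1, CRELD2, MANF and XBP1 were the calls lost to single libraries there, which took in vehicle replicates 1, 2 and 3 and medium-dose replicates 1 and 3.

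At 20 µg/mL of fresh ginger HSPA5 (0.12 ± 0.03), SDF2L1 (0.38 ± 0.08), CRELD2 (0.21 ± 0.05) and MANF (0.18 ± 0.05) rose and DNAJB9 fell (-0.19 ± 0.06), among 7.94% of all genes called, 3.56% higher and 4.38% lower. The count of 5 was 2 without vehicle replicate 1, 3 without vehicle replicate 2 and 3 without low-dose replicate 3. DNAJB9 lost its call without each vehicle library and low-dose replicates 2 and 3, MANF without vehicle replicates 1 and 2 and low-dose replicates 1 and 3, and CRELD2 without vehicle replicate 1. At 20 µg/mL of dried ginger edgeR called 0 members, with 3 at an unadjusted p under 0.05 and 0 by DESeq2 (0.0512% of all genes called).

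Between 20 and 500 µg/mL, within a set, 9 members were higher at the high dose of fresh ginger (23.3% of all genes called, 11.4% higher) and 10 at that of dried ginger (13.2% called, 6.07% higher). HERPUD1 differed by 0.90 ± 0.04 and 0.66 ± 0.04, DNAJB9 by 0.72 ± 0.06 and 0.42 ± 0.06 and HSPA5 by 0.37 ± 0.03 and 0.40 ± 0.03. SDF2L1 did not pass under fresh ginger (0.15, interval -0.002 to 0.293). Its call under dried ginger (0.21 ± 0.07) ended without high-dose replicates 1 or 2 or low-dose replicates 2 or 3 (adjusted p = 0.12, 0.29, 0.14 and 0.21).

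The step from 100 to 500 µg/mL of fresh ginger raised DNAJB9 (0.59 ± 0.06), HERPUD1 (0.53 ± 0.04), XBP1 (0.24 ± 0.05) and DNAJC3 (0.12 ± 0.04), and HSP90B1 was lower (-0.07 ± 0.02), among 10.7% of all genes called, 4.96% higher and 5.70% lower. HSPA5 did not pass (0.05, interval -0.004 to 0.102). The count of 5 was 3 without high-dose or medium-dose replicate 3. HSP90B1 lost its call without any of high-dose replicates 2 and 3 and medium-dose replicates 1 and 3, with library totals alone, with no filter and with only the 2 groups, and DNAJC3 without high-dose replicates 1 and 3 and medium-dose replicates 2 and 3. The same step of dried ginger raised HERPUD1 (0.39 ± 0.04), DNAJB9 (0.33 ± 0.05), MANF (0.17 ± 0.05) and HSPA5 (0.14 ± 0.03), among 8.92% of all genes called, 4.01% higher. MANF lost its call there without high-dose replicates 1 or 2 or medium-dose replicates 2 or 3, and with only the 2 groups.

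**Figure D4:**
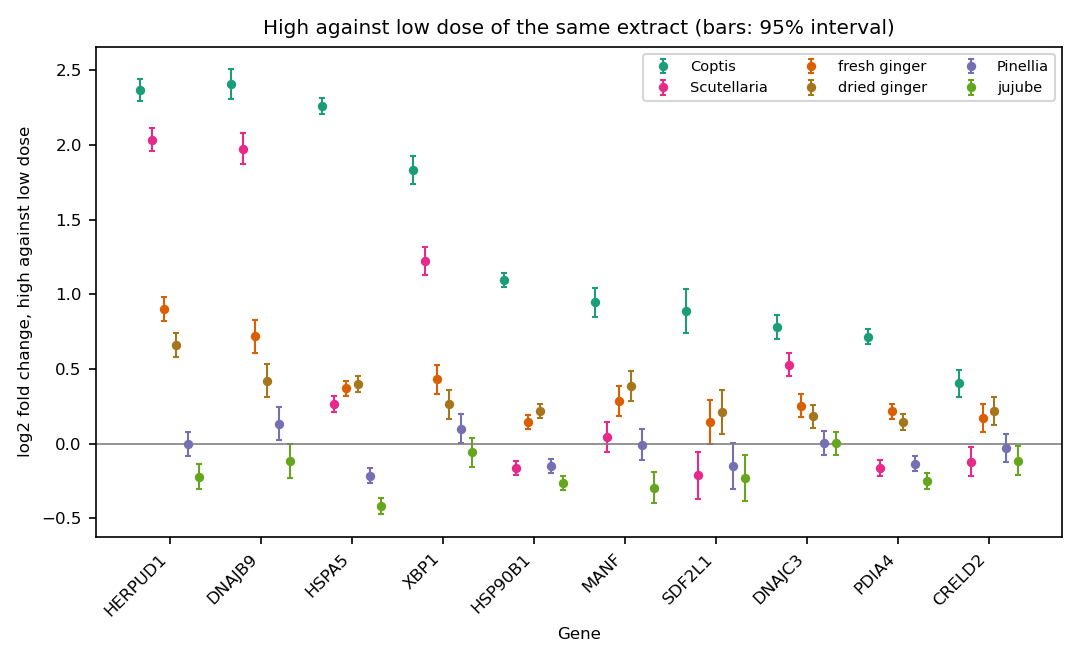
Log2 difference between the high and the low dose of each of the 6 extracts for each member, with 95% intervals. DNAJB9 and HERPUD1 lie between 1.97 and 2.41 under Coptis and Scutellaria, where HSP90B1 is at 1.10 and -0.16, and HSPA5 is below 0 under Pinellia and jujube.

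The other lists moved in different directions under fresh ginger at 500 µg/mL, where 9.12% of all genes were called higher and 10.2% lower. Of the ATF4 and CHOP list 16 of 17 rose and 0 fell (median 0.80), with ATF4 at 0.80 ± 0.04, DDIT3 at 0.83 ± 0.07 and ASNS at 1.28 ± 0.03. Other ER chaperones rose in 13 of 29 cases and fell in 0 (median 0.11), HYOU1 by 0.29 ± 0.02 and CALR by 0.35 ± 0.03. Of the 20 cytosolic heat shock genes 14 fell and 0 rose (median -0.17), HSPA8 by -0.36 ± 0.03. ERN1 (0.34 ± 0.06) and EIF2AK3 (0.20 ± 0.04) rose, and ATF6 did not pass the test (0.08, adjusted p = 0.099).

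Dried and fresh ginger, used at equal doses, differed in few members. At 500 µg/mL HERPUD1 (-0.20 ± 0.04, adjusted p = 0.00043) and DNAJB9 (-0.20 ± 0.05, adjusted p = 0.038) were lower under dried ginger, among 1.42% of all genes called. The libraries did not overlap for HERPUD1, DNAJB9 and XBP1, as for 14.2% of all genes (7.43% lower). The other 8 had differences between -0.15 and 0.01, XBP1 among them, which was not called (-0.15, interval -0.25 to -0.05, adjusted p = 0.13). DNAJB9 lost its call without replicates 1 or 3 of the fresh or replicates 2 or 3 of the dried extract, and with only the 2 groups (adjusted p 0.0022 to 0.28 over 12 alternatives), which left a count of 1.

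At 100 µg/mL HSPA5 was lower under dried ginger (4516, 4402 and 4294 CPM) than under fresh ginger (4925, 4857 and 4869 CPM), a log2 difference of -0.15 ± 0.03 (adjusted p = 0.0031) among 0.0683% of all genes called. It lost the call without dried ginger replicate 3 (adjusted p = 0.12) and with only the 2 groups (adjusted p = 0.15; 1.6e-06 to 0.15 over 12 alternatives). At 20 µg/mL edgeR called 0 members, with 4 at an unadjusted p under 0.05 and 1 by DESeq2, HSPA5 (-0.09, interval -0.14 to -0.04), where 0.279% of all genes were called by edgeR. Whether the rise from 20 to 500 µg/mL differed between the gingers was tested directly, and it was smaller under dried ginger for DNAJB9 (-0.30 ± 0.08, adjusted p = 0.046) and HERPUD1 (-0.24 ± 0.06, adjusted p = 0.013), among 0.814% of all genes called. Over 18 alternatives their adjusted p were 0.0026 to 0.16 and 0.0011 to 0.086, and leaving out 1 library ended the DNAJB9 call for 9 of the 12 libraries and the HERPUD1 call for 4.

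Jujube and Pinellia lowered the large chaperones. Under jujube at 500 µg/mL HSPA5, HSP90B1, PDIA4, HERPUD1 and MANF fell and 0 rose (17.3% of all genes called, 9.10% lower), with a median of -0.19 for the members and 0.00 for all genes. HSPA5 was at 2646, 2644 and 2615 CPM, the lowest of all 20 groups (-0.45 ± 0.03, adjusted p = 3.3e-19). MANF fell by 0.30 ± 0.05, HERPUD1 by 0.26 ± 0.04, PDIA4 by 0.26 ± 0.03 and HSP90B1 by 0.23 ± 0.02 on the log2 scale. XBP1 did not follow (0.06, interval -0.04 to 0.16).

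Against 20 µg/mL 6 members were lower at the high dose of jujube (15.2% of all genes called, 7.85% lower), the same 5 and SDF2L1 (-0.23 ± 0.08, adjusted p = 0.034). HSPA5 differed by -0.42 ± 0.03. The SDF2L1 call ended without high-dose replicates 2 or 3 or low-dose replicates 1 or 2, and with library totals alone (adjusted p 1.8e-05 to 0.17 over 12 alternatives). Against 100 µg/mL the same 5 were lower (8.03% called, 4.41% lower), and 8 when no other libraries were fitted. At 100 and 20 µg/mL edgeR called 0 members against the vehicle (0.364% and 0.0114% of all genes), with 2 at an unadjusted p under 0.05 at each dose, and DESeq2 called 1 at 100 µg/mL, HSPA5 (-0.09, interval -0.14 to -0.04), and 0 at 20 µg/mL.

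Pinellia at 500 µg/mL lowered HSPA5 to 2933, 2871 and 2767 CPM (-0.33 ± 0.03, adjusted p = 6.1e-15), HSP90B1 (-0.23 ± 0.02) and PDIA4 (-0.22 ± 0.03), while XBP1 rose (0.19 ± 0.05, adjusted p = 0.0035), among 18.0% of all genes called, 9.30% higher and 8.73% lower. XBP1 was not called against 20 µg/mL of Pinellia (0.10, interval 0.002 to 0.199, adjusted p = 0.18), where the same 3 chaperones were lower (14.5% of all genes called, 6.86% lower) and HSPA5 differed by -0.21 ± 0.03. They were also lower than at 100 µg/mL (6.90% called, 3.19% lower), and HSPA5 alone kept its call when no other libraries were fitted.

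At 100 µg/mL of Pinellia the same 3 fell (1.41% of all genes called, 0.489% lower), HSPA5 by 0.16 ± 0.03. HSP90B1 (-0.10 ± 0.02) lost its call without vehicle replicates 1 or 2, medium-dose replicates 2 or 3, with no filter and with only the 2 groups, the last of which also ended that of PDIA4 (adjusted p = 0.058). At 20 µg/mL HSPA5 fell by 0.12 ± 0.03 (adjusted p = 0.031), among 0.142% of all genes called, a call that ended without any vehicle library, without low-dose replicates 2 or 3 and with only the 2 groups (adjusted p 0.00049 to 0.27 over 12 alternatives).

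Beyond the members, other ER chaperones and folding enzymes fell in 12 of 29 cases under jujube (1 rose) and in 13 under Pinellia (1 rose) at 500 µg/mL, with medians of -0.10 and -0.06, where 9.10% and 8.73% of all genes were called lower. With library totals alone 10 fell and 4 rose under jujube, a scaling for which the shares of all genes are not given here. CANX (-0.22 ± 0.02) and CALR (-0.29 ± 0.03) fell under jujube, and PDIA6 (-0.19 ± 0.03) and TXNDC5 (-0.13 ± 0.02), both disulfide isomerases, under Pinellia. Translocation and N-glycosylation genes fell in 13 of 27 cases under jujube (1 rose), SEC61A1 by 0.12 ± 0.02. Under jujube ATF4 fell by 0.28 ± 0.04 and DDIT3 did not pass (-0.20, adjusted p = 0.065). Under Pinellia ATF4 rose by 0.23 ± 0.04. ERN1 rose under both, by 0.21 ± 0.06 and 0.37 ± 0.06.

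Wortmannin at 10 µM moved 5 members, by small amounts (36.5% of all genes called, 17.3% higher and 19.2% lower). HSPA5 fell to 3014, 3062 and 3119 CPM (-0.23 ± 0.03, adjusted p = 2.3e-10), and MANF (-0.15 ± 0.05), PDIA4 (-0.10 ± 0.03) and HSP90B1 (-0.09 ± 0.02) fell. DNAJB9 rose to 40.4, 39.87 and 40.56 CPM (0.22 ± 0.06, adjusted p = 0.0016), above every vehicle library. MANF lost its call without vehicle replicates 1 or 3 or wortmannin replicate 2 (adjusted p = 0.076, 0.068 and 0.072). HERPUD1 was not called (0.09, interval 0.01 to 0.18, adjusted p = 0.07). DDIT3 fell by 0.56 ± 0.08, and ATF4, ERN1, EIF2AK3 and ATF6 had log2 fold changes of -0.01, 0.07, 0.05 and 0.02 and were not called.

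At 20 µg/mL of Coptis 37.8% of all genes lay above the vehicle without overlap, and 35.8% above 4 µg/mL. How many of all genes were highest of the 20 groups there, or apart from the next group, was not counted. The counts of members by place among the groups therefore have no background of that kind. With trimmed-mean scaling, each member was highest at 20 µg/mL of Coptis across the 20 groups. There all 3 libraries of each member lay above every library of the next group. As unscaled shares of all counts this held for 8 members: CRELD2 was at 0.00593% there, below 0.00658% under fresh and 0.00639% under dried ginger at 500 µg/mL, and DNAJC3 at 0.0268%, below 0.0280% under Scutellaria at 410 µg/mL. Behind the first place the scaled order split. HSPA5, HSP90B1, PDIA4, CRELD2 and MANF had Coptis at 4 µg/mL next, although the libraries of CRELD2 and MANF overlapped there with those of fresh ginger at 500 µg/mL. In unscaled shares that place went to fresh ginger for HSP90B1 (0.190% at 100 µg/mL, against 0.187%) and for MANF (0.0224% at 500 µg/mL, against 0.0203%). DNAJB9, DNAJC3, HERPUD1 and XBP1 had Scutellaria at 410 µg/mL in the second place, at 133.6, 272.9, 302.0 and 254.5 CPM, apart from the groups on both sides. SDF2L1 had fresh ginger at 500 µg/mL next (70.79 CPM), in a run of overlapping groups that reached down to the vehicle.

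At the lower end HSPA5, PDIA4, CRELD2, HERPUD1 and MANF were lowest in jujube at 500 µg/mL, HSP90B1 in Pinellia at 500 µg/mL (1315 CPM, overlapping jujube at 1317 CPM), SDF2L1 in wortmannin (46.48 CPM), DNAJB9 in fresh ginger at 20 µg/mL (30.44 CPM) and DNAJC3 in Scutellaria at 82 µg/mL (176.1 CPM). The lowest group overlapped the next one for PDIA4, CRELD2, SDF2L1 and DNAJB9 too. In unscaled shares the lowest group was Coptis at 4 µg/mL for DNAJC3 (0.0175%) and wortmannin for CRELD2 (0.00482%). XBP1 was lowest in the vehicle, at 98.2 CPM, which overlapped its neighbor, fresh ginger at 20 µg/mL (101.8 CPM). Over group means of log2 CPM, the 45 pairs of members had Pearson correlations of 0.42 to 0.98 with a median of 0.83. DNAJB9 with XBP1 (0.98) and HSP90B1 with PDIA4 (0.98) were the closest pairs, and DNAJC3 with CRELD2 (0.42) was the loosest. Without the high doses of Coptis and Scutellaria the range was 0.34 to 0.99 with a median of 0.85. Single pairs moved in both directions, DNAJC3 with XBP1 from 0.934 to 0.371 and CRELD2 with XBP1 from 0.529 to 0.845. DNAJB9 with XBP1 was then at 0.897, and HSPA5 with PDIA4 (0.987) was the closest pair. Group means share the library scaling, and no test was made on them.

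The genes outside the members whose group means were most like the mean pattern of the 9 members other than XBP1 were HYOU1 (r = 0.99), CALR (0.97), PDIA3 (0.97), SLC35B1 (0.96), OSTC (0.96) and SEL1L (0.95), over 20 groups. Of these 6, 3 (HYOU1, CALR and PDIA3) were also among the 6 closest without the high doses of Coptis and Scutellaria. XBP1 was closest to XIAP, SYVN1, GFPT1 and SELENOS (r = 0.99 for each), and 0 of the 4 were among its 4 closest over the other 18 groups. The closest gene was CALR for SDF2L1, PDIA4, CRELD2 and MANF, HYOU1 for HSPA5, PDIA3 for HSP90B1, GOLPH3L for DNAJB9, TMF1 for DNAJC3 and CARS1 for HERPUD1. Over the 18 groups it was another gene for HSP90B1, DNAJB9, DNAJC3, SDF2L1 and HERPUD1.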

How the data were processed

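The deposited table holds RSEM expected counts per Ensembl gene for 60 libraries of SW1783 cells. Tools listed in the submitters' processing notes are STAR 2.7.3a and RSEM 1.3.3, with Trim Galore 0.6.5, FastQC 0.11.9 and the build GRCh38. Neither the annotation release nor the strand setting of the counting is stated there or in the labels. Per the labels, libraries were directional and read as 100 bp pairs. Every column was matched to a library by its code.

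Estimated counts were rounded and tested in R 4.3.3 with edgeR 4.0.16 (filterByExpr, TMM scaling, quasi-likelihood F test, two-sided) in a single fit of all 60 libraries with 40 residual degrees of freedom. The 34 comparisons and the dried-minus-fresh contrast were adjusted by Benjamini-Hochberg over 17569 genes and called under 0.05. Values in CPM use the TMM factors, except those of the markers and their sums, which use library totals. Errors of log2 fold changes are SE, those of levels SD, and intervals are 95%. Per-kilobase levels use GENCODE v29 exons.

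Members, 7 lists of 155 genes and comparisons were chosen with earlier results of these data known. The rule was to name all members in each comparison, but for dose steps and weak doses the text names mainly the called members, and of each list at most the 4 called genes with the smallest p in a described treatment, besides ATF4, DDIT3, ATF6, ERN1 and EIF2AK3, and by likeness the 6, 4 and 1 closest genes. Alternatives were relative log expression scaling, library totals, no filter, a replicate block, only the groups compared, DESeq2 1.42.0 and leaving out each library.

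On counts simulated for wortmannin against vehicle (17018 genes), 33, 46, 48 and 49 of 50 genes changed 1.2, 1.5, 2 and 4-fold were recovered, with 8 false calls among 184. Replicate libraries differed by more than counting noise (chi-square of 1.63 to 5.93 per gene), and none were identical.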

Additional observations from a re-analysis of the deposited data

Results flagged for a closer look

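The rise from 20 to 500 µg/mL differed between dried and fresh ginger for DNAJB9 and HERPUD1, by a test of the difference itself. For DNAJB9 the log2 difference was -0.298, a rise of 0.42 under dried and of 0.72 under fresh ginger (adjusted p = 0.046). For HERPUD1 it was -0.242, with rises of 0.66 and 0.90 (adjusted p = 0.013). Both are co-chaperone and degradation genes of the stressed ER, and the other 8 members had differences between -0.17 and 0.10 that did not pass the test. With only the 4 ginger groups in the fit neither passed (adjusted p = 0.096 and 0.073).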

How the results depend on the processing

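Of 340 member values in 34 comparisons 175 were called, and 28 of these lost the call, with their direction kept, under at least 1 alternative. Relative log expression scaling changed 1 value's side of the threshold, DESeq2 7, library totals 9, the replicate block 8, the missing filter 20 and the fit of only the groups compared 24. Of the 9 with library totals, 1 also reversed and is not among the 28, CRELD2 between 4 and 20 µg/mL of Coptis (-0.04, not called). Counts of called members against the vehicle moved with no filter to 1 (dried ginger low), 2 (Scutellaria low) and 3 (Coptis low), with only the groups compared to 5 (dried ginger medium), 1 (Pinellia medium), 0 (Pinellia low), 1 (Scutellaria low) and 2 (Coptis low), and with DESeq2 to 2 (Pinellia low) and 1 (jujube medium). High against medium with only the groups compared gave 1 for Pinellia and 8 for jujube. Dried against fresh ginger gave 1 at the high and 0 at the medium dose with only the groups compared, 1 at the low dose with no filter, and with DESeq2 2 at the medium and 1 at the low dose. The differences in rise of DNAJB9 (-0.30) and HERPUD1 (-0.24) kept their size and lost their calls with only the groups compared. Leaving out 1 library gave -0.35 to -0.24 and -0.28 to -0.21 for them, and counts of 0 to 0 for Coptis low, 0 to 1 for Pinellia low, 4 to 8 for dried ginger medium and 2 to 4 for fresh ginger low against the vehicle, 3 to 5 for fresh ginger high against medium, and 1 to 2 and 0 to 1 for dried against fresh ginger at the high and medium dose. Numbers did not pair the libraries (mean residual correlation 0.003 for the same and -0.002 for other numbers, 26 of 60 libraries closest to their own, and 0 of 34 comparisons with every pair above 0.1), and the replicate block raised the count of dried against fresh ginger at the medium dose from 1 to 2. The cause of these moves was not tested. Fits of fewer libraries have fewer degrees of freedom, and their filter, scaling and spread were also estimated anew. Counts of list genes under other scalings were added after seeing the data.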

Other observations

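Among the lists not yet described at the medium dose of Coptis, where 21.0% of all genes were called higher and 20.2% lower, all 17 tested genes of the ATF4 and CHOP list rose (median 1.50), ATF4 by 1.64 ± 0.03 and DDIT3 from 24.79 to 103.7 CPM (2.06 ± 0.06). Other ER chaperones rose in 19 of 29 cases and fell in 1 (median 0.13), a median that was -0.01 with library totals alone, with 12 risen and 5 fallen. Of the 20 cytosolic heat shock genes 15 fell and 2 rose, and 17 fell and 2 rose with library totals alone. Shares of all genes under library totals are not given here, so the counts with that scaling have no background. ERN1 rose by 0.83 ± 0.06 and ATF6 by 0.34 ± 0.03, and EIF2AK3 did not pass the test (0.07, adjusted p = 0.24). Under wortmannin, where 17.3% of all genes were called higher and 19.2% lower, 15 of 27 genes of translocation and N-glycosylation fell and 4 rose (median -0.12), and 7 of 17 genes of the ATF4 and CHOP list fell and 3 rose (median -0.09).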
